A study of Mus musculus with 32 samples.

Results

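The mRNAs of 10 secreted acute phase proteins were followed across mouse livers that differed in sex, in Cyp2c70 genotype and in diet. The genes are Saa1, Saa2, Saa3, Orm1, Orm2, Orm3, Hp, Crp, Lcn2 and Apcs, taken by gene symbol from the deposited count table, which makes them 10 of its 54532 genes. The table held liver mRNA of 32 mice in 8 groups of 4, each library from 1 mouse. All mice were C57BL/6 and 12 weeks old. WT mice and Cyp2c70 KO mice of each sex were fed chow or chow with 0.006% SC-435 (about 11 mg/kg/day), begun after weaning. SC-435 is an inhibitor of IBAT, the transporter by which the ileum takes bile acids back up for return to the liver, and Cyp2c70 is the mouse enzyme that makes the hydrophilic muricholates. The KO line descended from a founder made by CRISPR deletion around exon 2, so that every KO mouse carried the same deleted allele in all its cells. The study compared the groups to learn how loss of Cyp2c70 and IBAT inhibition affect the liver.

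In the acute phase response, cytokines released at a site of injury or infection act on hepatocytes, which then change what they secrete into blood within hours. Signals of the Il6 family pass through Il6st and Stat3, signals of Il1b and Tnf pass through NF-kB, and C/EBP factors act with both. Proteins that rise are called positive acute phase proteins and those that fall, such as albumin, are called negative. In the mouse, serum amyloid A and serum amyloid P are strong responders, whereas C-reactive protein, the classical marker in humans, responds little.

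The genes fall into 4 roles. Saa1, Saa2 and Saa3 encode serum amyloid A proteins, which travel on high-density lipoprotein. Orm1, Orm2 and Orm3 encode orosomucoid, also called alpha-1-acid glycoprotein, a carrier of basic and lipophilic compounds. Hp encodes haptoglobin, which captures free haemoglobin, and Lcn2 encodes lipocalin 2, which binds bacterial siderophores and so withholds iron. Crp and Apcs encode the pentraxins C-reactive protein and serum amyloid P component, which bind microbes and cell debris. In mm10 the Saa genes lie together on chromosome 7, Saa3 at chr7:46711998-46715700 (minus strand), Saa1 at chr7:46740497-46742980 (minus) and Saa2 at chr7:46751790-46754313 (plus). The Orm genes lie side by side on the plus strand of chromosome 4, Orm1 at chr4:63344560-63348163, Orm3 at chr4:63356162-63359511 and Orm2 at chr4:63362449-63365878. Crp (chr1:172698055-172833031, plus) and Apcs (chr1:172893961-172895041, minus) are neighbours on chromosome 1, Lcn2 lies at chr2:32384633-32388252 (minus) and Hp at chr8:109575128-109579172 (minus). All 10 are annotated as protein-coding.

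Members of a family resemble each other in sequence, which matters for how reads are assigned. The coding sequences of Saa1 and Saa2 were 95.1% identical, and those of Orm1 and Orm2 were 89.9% identical, computed from the genome and the GENCODE M21 annotation. Of the stretches of 100 bases in the transcripts of Saa1, 8.96% also occurred in Saa2, and 6.95% of those of Orm1 occurred in Orm2. Saa3, Orm3, Hp, Crp, Lcn2 and Apcs shared no stretch of 100 bases with another gene. Reads that fall in the shared stretches can be assigned to either paralog or dropped. The split between Saa1 and Saa2, and between Orm1 and Orm2, is therefore uncertain. The shares count all annotated transcripts, which for Saa1 hold 2478 exon bases and 366 coding bases. They also depend on the length taken, and of stretches of 50 bases 31.5% in Saa1 and 20.4% in Orm1 were shared with another gene. They are not the share of reads affected, which was not measured. The span of Crp also holds the pseudogene Gm38051, but the exons of the pair share 0 bases.

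The upstream sequences of the genes that differed between groups are shown for the pairs that can be compared, the 250 bases before the gene's start from RefSeq (GRCm38.p6), read 5′ to 3′ on the gene's strand. Capitals mark the 8 letters that match the C/EBP pattern TTGCNNAA or its reverse complement TTNNGCAA. For Saa2, 43 bases nearest the start are left out because another transcript of the annotation counts them as exon. The first pair is Saa1 (chr7:46742981-46743230, minus) and Saa2 (chr7:46751583-46751789, plus), and the second is Orm2 (chr4:63362199-63362448, plus) and Orm3 (chr4:63355908-63356157, plus).
Saa1: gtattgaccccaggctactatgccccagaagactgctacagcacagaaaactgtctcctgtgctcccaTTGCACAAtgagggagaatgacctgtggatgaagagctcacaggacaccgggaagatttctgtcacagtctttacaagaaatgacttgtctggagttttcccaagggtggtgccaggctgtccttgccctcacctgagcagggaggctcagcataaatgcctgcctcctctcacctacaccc
Saa2: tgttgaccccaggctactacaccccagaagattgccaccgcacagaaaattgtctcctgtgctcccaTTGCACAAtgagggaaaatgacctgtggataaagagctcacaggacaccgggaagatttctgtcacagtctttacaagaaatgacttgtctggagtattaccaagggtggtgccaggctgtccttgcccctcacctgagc
Orm2: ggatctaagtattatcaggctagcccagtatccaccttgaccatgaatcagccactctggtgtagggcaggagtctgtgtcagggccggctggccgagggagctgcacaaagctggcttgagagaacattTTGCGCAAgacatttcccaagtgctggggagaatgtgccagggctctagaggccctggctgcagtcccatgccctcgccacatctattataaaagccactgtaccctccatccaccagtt
Orm3: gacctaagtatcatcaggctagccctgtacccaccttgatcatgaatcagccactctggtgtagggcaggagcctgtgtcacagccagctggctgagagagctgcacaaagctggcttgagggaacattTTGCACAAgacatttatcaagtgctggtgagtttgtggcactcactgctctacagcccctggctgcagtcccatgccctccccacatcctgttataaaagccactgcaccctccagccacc
The Saa1 and Saa2 upstream sequences were 94.8% identical over the full 250 bases, those of Orm2 and Orm3 were 85.5% identical, and those of Saa1 and Saa3 were 48.5% identical. RefSeq sequence was at hand for 8 of the 10 genes, and not for Orm1 and Hp. The C/EBP pattern was found in 6 of these 8, namely Saa1, Saa2, Saa3, Orm2, Orm3 and Lcn2, against 9.56% of 32851 promoters searched on both strands. The match began at base -182 in Saa1 and -183 in Saa2, and at -120 in Orm2 and -121 in Orm3. As the sequences of each pair are alike, the 6 matches are not independent. A STAT pattern, TTCNNNGAA, which reads the same on both strands, was found in Apcs as TTCTAGGAA and in 7.02% of all promoters. An NF-kB pattern (GGG, 2 free bases, TT, 1 free base and CC, searched on both strands) was found in none of the 8 and in 4.11% of all promoters. For Lcn2 the RefSeq start lies inside the gene's span given above, and 197 of its 250 bases are annotated as exon in GENCODE M21, as are 24 of those of Saa3. These are matches of letters in 250 bases and not measured binding.

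Library totals ran from 36476021 to 44771350 counts with a median of 42232543, and values are given below as counts per 1000000 (CPM) scaled by TMM across the 32 libraries. Counts of Cyp2c70, taken over all its exons, were 271 to 838 CPM in the 16 WT mice and 109 to 188 CPM in the 16 KO mice, without overlap. Male WT chow replicate 1 and male WT SC-435 replicate 4 stood apart from their groups. The TMM factor of male WT chow replicate 1 was 0.622, against 0.964 to 1.004 in its group mates. This scaling raises all CPM of that library relative to plain counts per 1000000. In male WT chow replicate 1, 16.3% of the 15211 genes tested in male WT mice were over 2-fold higher and 23.9% over 2-fold lower than the mean of its 3 group mates, and 4 of the 10 acute phase genes were among the former. In male WT SC-435 replicate 4 only 1.93% of genes were over 2-fold higher and 1.51% over 2-fold lower, but 9 of the 10 acute phase genes were among the higher ones. Results that rest on these mice are given with and without them. In whole liver, fewer cells of a type and less RNA per cell cannot be told apart.

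Levels are given first per kb of the deposited gene length, which joins the exons of all annotated transcripts. That length was 2478 bases for Saa1, with 366 coding bases, and 775 for Orm1, with 621. Values per kb thus do not compare genes per spliced mRNA. By this measure the 10 genes spanned more than 3 orders of magnitude in female WT mice on chow. In plain CPM they ran from 2082 for Hp to 2.6 for Saa3, and Saa1 at 22.7 was above Orm3 at 6.67. The level was 1296 ± 170 CPM per kb for Hp (SD, n = 4) and 699 ± 140 for Orm1. It was 115 ± 10.9 for Crp and 95.1 ± 29.0 for Apcs, followed by Orm2 at 23.6 ± 5.83 CPM per kb. The low end was held by Saa1 at 9.15 ± 2.61, Orm3 at 8.63 ± 2.73, Saa2 at 4.1 ± 1.26, Lcn2 at 3.23 ± 1.79 and Saa3 at 0.998 ± 0.329 CPM per kb. Hp and Orm1 were thus abundant mRNAs, whereas the serum amyloid A genes and Lcn2 were scarce. Together the 10 genes took 0.236% to 0.536% of all counts in 31 of the 32 mice and 3.69% in male WT SC-435 replicate 4. The plot of every mouse by gene shows all of these values.

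**Figure D1:**
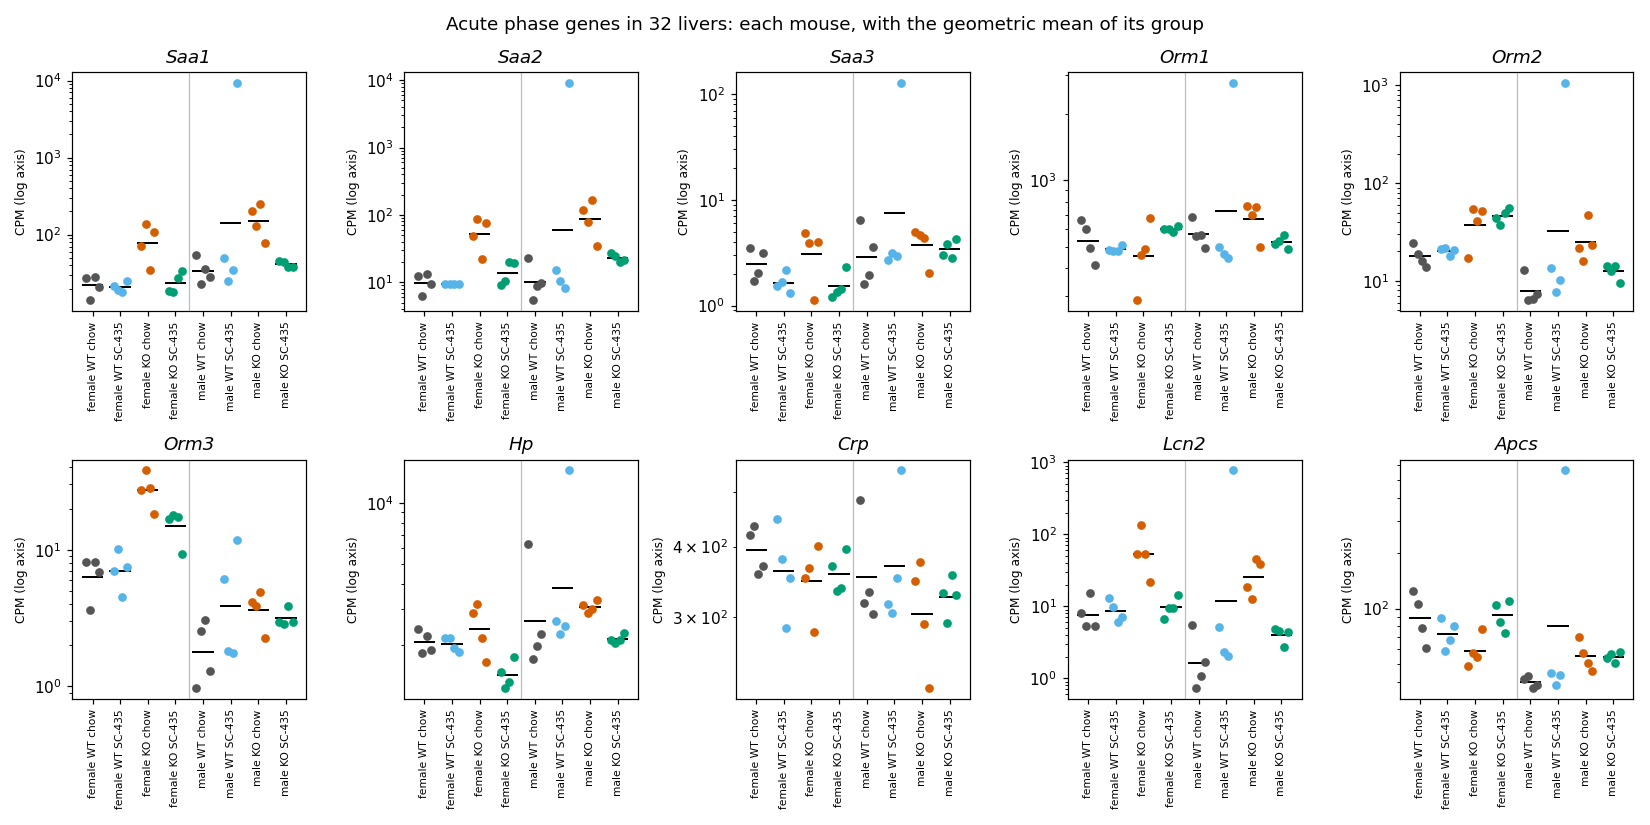
Level of each of the 10 genes in each of 32 livers, in CPM on a log axis that differs between panels, with females left of the grey line and males right. Each point is 1 mouse and each bar the geometric mean of 4 mice. Lcn2, Saa1 and Saa2 are higher in KO mice on chow than in WT mice on chow in both sexes, and male WT SC-435 replicate 4 is the highest of 32 mice for 9 of the genes.

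The first comparison asked what loss of Cyp2c70 did in females on chow. Lcn2, Saa2, Orm3, Saa1 and Orm2 rose, by 2.93 to 1.16 on the log2 scale, while Saa3, Orm1, Hp, Crp and Apcs did not pass the test. These are 5 of 10 genes higher and 0 lower, where 9.83% of the 16205 genes tested were higher and 5.05% lower. The 10 genes were chosen with earlier results of these data known. Such counts beside the share of all genes, here and below, are therefore a description and no test. The median log2 fold change was 0.79 over the 10 genes and -0.02 over all genes. All 10 genes passed the filter on low counts in this and every other comparison.

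Lcn2 was measured at 7.99, 5.38, 15.3 and 5.29 CPM in the 4 female WT mice on chow and at 53.4, 133, 52.5 and 21.5 CPM in the 4 KO mice. Every KO mouse was above every WT mouse, and KO replicate 2 was far above the other KO mice. The log2 fold change was 2.93 ± 0.54 (SE) with an adjusted p of 0.00707 by edgeR's quasi-likelihood test, which is used throughout unless another is named. Saa2 was at 12.6, 6.30, 13.2 and 9.28 CPM in WT and at 48.6, 87.0, 22.4 and 74.5 CPM in KO mice, a log2 fold change of 2.48 ± 0.39 (adjusted p = 0.00384). Saa1 was at 27.1, 14.2, 28.3 and 21.2 CPM in WT and at 71.2, 136, 34.98 and 108 CPM in KO mice, a log2 fold change of 1.94 ± 0.37 (adjusted p = 0.0087). For both serum amyloid genes the groups did not overlap, and KO replicate 3 was the lowest KO mouse and replicate 2 the highest.

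Among the orosomucoids, Orm3 and Orm2 passed the test and Orm1, the most abundant of them, did not. Orm1 was at 658, 599, 493 and 416 CPM in WT and at 288, 458, 487 and 675 CPM in KO mice, with full overlap and a log2 fold change of -0.19 ± 0.24 (adjusted p = 0.62). Orm3 was at 8.17, 3.64, 8.06 and 6.81 CPM in WT and at 27.4, 38.0, 28.4 and 18.4 CPM in KO mice, with no overlap and a log2 fold change of 2.06 ± 0.27 (adjusted p = 0.00217). Orm2 was at 24.2, 19.0, 16.1 and 13.7 CPM in WT and at 17.1, 54.8, 41.0 and 51.8 CPM in KO mice, where KO replicate 1 lay inside the WT range. Its log2 fold change was 1.16 ± 0.32 (adjusted p = 0.0347), and this call held in 3 of the 8 fits that left out 1 mouse. It was lost without WT replicate 2, 3 or 4 or without KO replicate 2 or 3, with the log2 fold change then between 1.01 and 1.18 and the adjusted p as high as 0.0978. The calls of Saa1, Saa2, Orm3 and Lcn2 held in 8 of 8 such fits. The groups of 4 of these genes, Saa1, Saa2, Orm3 and Lcn2, lay wholly above WT, as did 12% of all genes tested.

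The remaining genes in females were Hp, Crp, Saa3 and Apcs. Hp was at 2394, 1820, 2223 and 1891 CPM in WT and at 2867, 3184, 2169 and 1646 CPM in KO mice, which overlapped (log2 fold change 0.23 ± 0.20, adjusted p = 0.46). Crp ran from 358 to 436 CPM in WT and from 282 to 401 CPM in KO mice (-0.18 ± 0.13, adjusted p = 0.363). Saa3 ran from 1.72 to 3.49 CPM in WT and from 1.13 to 4.85 CPM in KO mice (0.41 ± 0.40, adjusted p = 0.522). Apcs was at 125, 105, 78.5 and 61.0 CPM in WT and at 49.0, 57.5, 54.3 and 77.7 CPM in KO mice, with 3 KO mice below every WT mouse. Its log2 fold change of -0.64 ± 0.22 missed the threshold (adjusted p = 0.0773). Apcs was called lower by DESeq2 (adjusted p = 0.0281), with no filter on low counts (adjusted p = 0.046), with all 4 female groups in 1 fit (adjusted p = 0.0345), and without KO replicate 4 (-0.77, adjusted p = 0.0318) or WT replicate 4 (-0.80, adjusted p = 0.032).

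Other genes of the acute phase response went in both directions in these females. Of 27 other positive acute phase genes tested, 1 rose and 3 fell, with a median log2 fold change of 0.15. Il1rn, the natural antagonist of the Il1 receptor, rose by 2.20 ± 0.34 (adjusted p = 0.00362), whereas the mannose-binding lectins Mbl2 and Mbl1 had log2 fold changes of -0.65 ± 0.16 and -0.59 ± 0.12. Of 10 negative acute phase genes, 3 fell, among them Apoa1 at -1.05 ± 0.24 and Alb at -0.82 ± 0.17. Of the cytokine ligands, 3 of 4 tested rose, namely Clcf1 (2.37 ± 0.29), Il1b (2.33 ± 0.37) and Il1a (0.80 ± 0.15). Il6 and Tnf were too low to be tested, Il6 having at most 5 counts in any of the 32 livers. Of 10 cytokine receptors, Il10rb rose by 1.05 ± 0.13 and Lifr fell (-0.98 ± 0.29), both called by the same test.

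Of 19 kinases, transcription factors and inhibitors of the response, 4 rose and 1 fell. The NF-kB subunits Relb (1.36 ± 0.25) and Nfkb2 (1.03 ± 0.15) had the highest log2 fold changes, and Cebpb, a C/EBP factor, fell (-1.55 ± 0.26, adjusted p = 0.00551). Stat3 had a log2 fold change of 0.15 ± 0.12 (adjusted p = 0.459), its feedback inhibitor Socs3 one of 0.64 ± 0.21 (adjusted p = 0.0704), and Cebpd one of -0.74 ± 0.29 (adjusted p = 0.118). Of 10 receptors and binding partners of the acute phase proteins, 3 rose, including Tlr2 (1.44 ± 0.22) and the pentraxin receptor Fcgr1 (1.09 ± 0.23). The haptoglobin receptor Cd163 fell (-2.01 ± 0.40, adjusted p = 0.00949).

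Markers of other cell types moved with this comparison. Of 10 macrophage and monocyte markers 8 were higher, and their summed level was 305 to 358 CPM in WT and 495 to 711 CPM in KO mice on chow. Of 6 cholangiocyte markers 4 were higher, with sums of 36.1 to 69.3 CPM in WT and 131 to 289 CPM in KO mice. The highest count in any liver was 63579 for Spp1 and 1048 for the next of these markers, Sox9. Cholangiocyte sums here and below can thus follow Spp1 alone. Both neutrophil markers that could be tested, S100a8 and S100a9, were higher, the sum of all 10 being 0.522 to 1.83 CPM in WT and 1.84 to 4.92 CPM in KO mice, and the defining marker Ly6g was at 0 in 25 of the 32 livers. Markers this low can pass the filter on low counts only through the group where they are high, so the direction of those tested may be partly given. Of 7 hepatocyte markers 3 were lower and 1 higher, and their sum was 90033 to 113779 CPM in WT and 55330 to 76776 CPM in KO mice. Alb and Apoa1, both lower, are on this list and on that of negative acute phase genes. The highest count in any liver was 3683437 for Alb and 625597 for the next marker, Apoa1. The hepatocyte sum is thus not separate from the fall of Alb given above. Lcn2 is also made by neutrophils and by injured epithelium, and the part of these cell types in the values of the acute phase genes was not tested.

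In males on chow the same contrast gave higher Lcn2, Saa2 and Saa1, 3 of 10 genes, where 0.933% of the 15862 genes tested were higher and 0.151% lower. The median log2 fold change was 0.74 over the 10 genes and 0.04 over all genes. Lcn2 was at 5.46, 0.739, 1.07 and 1.69 CPM in WT and at 18.3, 12.8, 46.0 and 38.9 CPM in KO mice, a log2 fold change of 3.77 ± 0.70 (adjusted p = 0.046). Saa2 was at 22.5, 5.44, 8.72 and 9.72 CPM in WT and at 117, 78.7, 166 and 35.03 CPM in KO mice (3.14 ± 0.56, adjusted p = 0.0412). Saa1 was at 54.2, 22.9, 35.4 and 28.4 CPM in WT and at 200, 129, 253 and 76.9 CPM in KO mice (2.26 ± 0.40, adjusted p = 0.0412). In each of these genes WT replicate 1 was the highest WT mouse and still below every KO mouse.

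The male calls depended on which mice were included. Without WT replicate 1, the mouse that stood apart, 5 of the 10 genes were called, at a background of 4.38% higher and 2.92% lower, and the log2 fold changes were 4.65 ± 0.56 for Lcn2 (adjusted p = 0.00747), 3.65 ± 0.53 for Saa2 (adjusted p = 0.0131) and 2.53 ± 0.40 for Saa1 (adjusted p = 0.0163). Leaving out any other WT mouse ended all 3 calls, with adjusted p between 0.112 and 0.15. Leaving out KO replicate 1 or 3 ended them too, KO replicate 2 ended those of Saa1 and Saa2, and KO replicate 4 those of Saa2 and Lcn2. With all 4 male groups in 1 fit, which includes male WT SC-435 replicate 4, none of the 3 was called (adjusted p = 0.119 for Lcn2, 0.215 for Saa2 and 0.287 for Saa1), and with genes of a mean of at least 50 counts Lcn2 was not (adjusted p = 0.0519). In all 8 of the fits that left out 1 mouse the log2 fold changes stayed between 1.96 and 2.53 for Saa1, 2.75 and 3.65 for Saa2, and 3.42 and 4.65 for Lcn2.

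Orm2 was at 13.0, 6.38, 6.59 and 7.29 CPM in male WT mice and at 21.6, 15.8, 47.6 and 23.3 CPM in KO mice on chow. The groups did not overlap, but its log2 fold change of 1.75 ± 0.38 missed the threshold (adjusted p = 0.0733) and passed it without WT replicate 1 (2.02 ± 0.36, adjusted p = 0.0208). Hp was at 6299, 1716, 1971 and 2266 CPM in WT and at 3152, 2891, 3000 and 3318 CPM in KO mice, so WT replicate 1 alone was above the KO mice. Its log2 fold change was 0.06 ± 0.40 (adjusted p = 0.957) with that mouse and 0.66 ± 0.15 (adjusted p = 0.0379) without it. Apcs, at 41.2, 42.8, 37.1 and 38.2 CPM in WT and at 70.3, 57.5, 50.6 and 45.8 CPM in KO mice, did not overlap between groups and had a log2 fold change of 0.52 ± 0.17 (adjusted p = 0.193). Counting overlap alone, 5 genes (Saa1, Saa2, Orm2, Lcn2 and Apcs) lay wholly above WT, as did 7.89% of all genes. Orm1, Orm3, Saa3 and Crp overlapped between the groups, with adjusted p from 0.316 to 0.807.

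Of 27 other positive acute phase genes in males, 1 rose, Il1rn (2.88 ± 0.38, adjusted p = 0.0153), with a median log2 fold change of -0.04. The median was -0.62 over 10 negative acute phase genes and 1.28 over 4 ligands. Il1b had a log2 fold change of 1.43 ± 0.49 (adjusted p = 0.204), Socs3 one of 0.13 ± 0.42, Stat3 one of 0.13 ± 0.22, Cebpb one of -0.51 ± 0.34 and Cebpd one of -0.06 ± 0.51. Without WT replicate 1, Il1rn and Lrg1 were higher, Clcf1 was higher among the ligands (2.25 ± 0.35), and Relb (1.37 ± 0.29), Nfkb2 (1.27 ± 0.21) and Nfkbiz were higher with Cebpa (-0.72 ± 0.12) and Nr3c1 lower. Without that mouse the medians were 0.24 over 27 other positive genes, -0.23 over 10 negative genes and 1.39 over 6 ligands. WT replicate 1 had 8 of 10 negative genes over 2-fold above the mean of its group mates. With all mice, cholangiocyte markers were 4 of 6 higher. Their sum ran from 24.02 to 34.7 CPM in WT and from 144 to 1178 CPM in KO mice. The macrophage sum ran from 232 to 354 CPM in WT and from 277 to 1109 CPM in KO mice, with a median log2 fold change of 0.86 over 10 markers. KO replicate 4 held the highest value of both sums. The next, KO replicate 3, had 488 CPM for cholangiocyte and 409 CPM for macrophage markers. The part of these cells was not tested.

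The difference between the sexes in the effect of genotype on chow was tested directly, and 0 of the 10 genes were called, at a background of 0.0117% in each direction. At an unadjusted p under 0.05 there were 2, Apcs (-1.12 ± 0.30, females minus males, adjusted p = 0.393) and Orm3 (1.15 ± 0.50, adjusted p = 0.74), where 1066 of all 17026 genes tested were under it. DESeq2 also called 0. For Lcn2 the difference was -0.78 ± 0.88, for Saa2 -0.60 ± 0.70 and for Saa1 -0.28 ± 0.58 on the log2 scale. Without male WT chow replicate 1 the difference was -1.69 ± 0.83 for Lcn2 (adjusted p = 0.399), 1.36 ± 0.46 for Orm3 (adjusted p = 0.212) and -1.14 ± 0.30 for Apcs (adjusted p = 0.12). The plot of fold changes sets the sexes side by side.

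**Figure D2:**
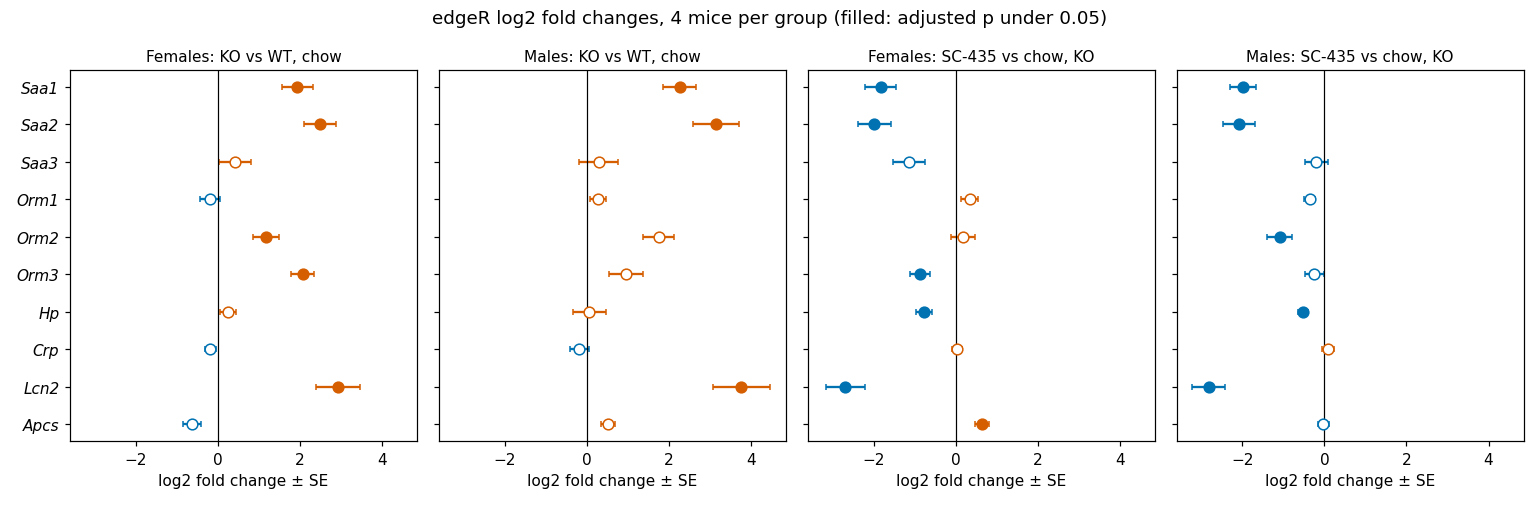
Log2 fold changes of the 10 genes (points) with standard errors (bars) from edgeR in 4 comparisons of 4 against 4 mice, filled where the adjusted p is under 0.05, orange for positive and blue for negative values. Lcn2, Saa2 and Saa1 are filled in all 4 panels, to the right of 0 for KO vs WT on chow and to the left for SC-435 vs chow in KO mice. The comparisons on the right share their KO chow mice with those on the left.

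The next comparison asked what the IBAT inhibitor did in KO mice. It used the same KO chow mice as the comparison of genotypes, so an opposite sign in the 2 comparisons is partly given by those shared mice. In females, Lcn2, Saa2, Saa1, Orm3 and Hp fell and Apcs rose, that is 5 of 10 genes lower, where 9.23% of the 16332 genes tested were lower, and 1 of 10 higher, where 8.56% were higher. The median log2 fold change was -0.82 over the 10 genes and -0.02 over all genes.

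On SC-435 the 4 female KO mice had Lcn2 at 6.69, 9.46, 9.54 and 14.5 CPM, all below the lowest KO mouse on chow. The log2 fold change was -2.69 ± 0.48 (adjusted p = 0.00675). Saa2 was at 9.21, 10.3, 19.96 and 19.0 CPM (-1.99 ± 0.40, adjusted p = 0.0105) and Saa1 at 18.8, 18.0, 27.6 and 33.8 CPM (-1.83 ± 0.37, adjusted p = 0.0105). For both, the highest treated mouse was just below the lowest untreated one, which stood at 22.4 CPM for Saa2 and 34.98 CPM for Saa1. Orm3 was at 16.7, 17.8, 17.2 and 9.37 CPM (-0.87 ± 0.24, adjusted p = 0.0309), again without overlap. These 4 genes were lower without overlap, as were 10.8% of all genes. The calls of Saa1, Saa2 and Lcn2 held in 8 of 8 fits that left out 1 mouse.

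The other calls in treated female KO mice were smaller and less stable. Hp was at 1479, 1232, 1313 and 1747 CPM (-0.77 ± 0.20, adjusted p = 0.0268), with KO chow replicate 4 at 1646 CPM inside that range. Apcs was at 104, 84.8, 73.5 and 110 CPM, higher than on chow by 0.65 ± 0.16 (adjusted p = 0.0236), the opposite direction to the rest. Orm3 held its call in 2, Hp in 3 and Apcs in 2 of the 8 fits. Orm3 lost it without SC-435 replicate 1, 2 or 3 or chow replicate 1, 2 or 3 (log2 fold change between -0.95 and -0.69, adjusted p up to 0.0873). Hp lost it without SC-435 replicate 1, 2 or 3 or chow replicate 1 or 2 (adjusted p up to 0.0869), and Apcs without SC-435 replicate 1, 2 or 4 or chow replicate 1, 2 or 3 (adjusted p up to 0.0687). Orm2 at 44.3, 36.9, 49.9 and 55.9 CPM (0.19 ± 0.29, adjusted p = 0.696) and Orm1 at 601, 605, 586 and 622 CPM (0.34 ± 0.20, adjusted p = 0.269) did not pass. Orm1 was tightly grouped on SC-435, within the range of 288 to 675 CPM seen on chow. Saa3, at 1.22 to 2.32 CPM, had a log2 fold change of -1.13 ± 0.40 (adjusted p = 0.074), and Crp one of 0.04 ± 0.12 (adjusted p = 0.859).

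In males, Lcn2, Saa2, Saa1, Orm2 and Hp fell on SC-435, 5 of 10 genes where 8.36% of the 15984 genes tested were lower, and 0 rose where 8.8% were higher. The median was -0.44 over the 10 genes and -0.03 over all genes. Lcn2 was at 4.79, 4.52, 2.69 and 4.36 CPM in treated male KO mice (-2.82 ± 0.40, adjusted p = 0.00368). Saa2 was at 27.4, 24.5, 19.7 and 21.2 CPM (-2.09 ± 0.39, adjusted p = 0.0105) and Saa1 at 46.1, 44.2, 38.1 and 37.8 CPM (-1.98 ± 0.31, adjusted p = 0.00535). The treated mice lay close together in all of them and below every male KO mouse on chow. Orm2 was at 14.2, 12.7, 14.2 and 9.56 CPM (-1.09 ± 0.31, adjusted p = 0.0398) and Hp at 2106, 2056, 2128 and 2288 CPM (-0.52 ± 0.11, adjusted p = 0.0171). All 5 genes were lower without overlap, as were 12.4% of all genes. Saa1, Saa2 and Lcn2 held their calls in 8 of 8 fits that left out 1 mouse, Hp in 6 and Orm2 in 3. With all 4 male groups in 1 fit, which includes male WT SC-435 replicate 4, none of the 5 was called, with adjusted p from 0.262 for Lcn2 to 0.667 for Orm2.

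Hp lost its call in males without SC-435 replicate 1 (-0.51, adjusted p = 0.068) or replicate 4 (-0.55, adjusted p = 0.0521). Orm2 lost it without any one of the SC-435 mice (adjusted p 0.0791 to 0.111) and without KO chow replicate 3, the mouse at 47.6 CPM, where its log2 fold change was -0.68 (adjusted p = 0.0557). Orm1 at 488 to 567 CPM had a log2 fold change of -0.37 ± 0.14 (adjusted p = 0.0933). Apcs at 50.6 to 58.3 CPM had one of -0.03 ± 0.13 (adjusted p = 0.9). Orm3, Saa3 and Crp had log2 fold changes of -0.25 ± 0.24, -0.20 ± 0.28 and 0.08 ± 0.15.

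Other genes of the response were more often lower than higher with SC-435 in KO mice. In females 12 of 27 other positive acute phase genes fell and 1 rose, with a median log2 fold change of -0.40. Il1rn (-1.69 ± 0.28) and the lipopolysaccharide-binding protein Lbp (-1.30 ± 0.22) had the lowest values, and Mbl2 was higher (0.33 ± 0.10). In males 7 of 27 fell, Il1rn (-1.81 ± 0.29) among them, and 2 rose, Hamp2 (1.77 ± 0.34) and Mbl2 (0.75 ± 0.16), with a median of -0.39 over the list. Among the negative acute phase genes, Fetub was higher in females (0.49 ± 0.14) and Serpina6, the corticosteroid-binding globulin, in males (0.94 ± 0.21), each 1 of 10.

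Among the cytokines that drive the response, Tnf was called in females, with 38, 51, 37 and 6 counts in the 4 KO mice on chow and 5, 4, 5 and 14 counts on SC-435 (-1.98 ± 0.57, 1 of 6 ligands tested) and Clcf1 was called in males (-1.86 ± 0.32, 1 of 4). Tnf was near the filter on low counts, and the KO chow mouse at 6 counts lay inside the SC-435 range. It was not refitted with mice left out. Il1b was just outside the threshold in both, at -1.07 ± 0.33 (adjusted p = 0.0513) in females and -0.99 ± 0.31 (adjusted p = 0.0567) in males. Il1r1 was lower in both sexes (-0.69 ± 0.13 in females, -1.41 ± 0.40 in males), with 3 of 10 receptors lower and 1 higher in females, Il6ra (0.60 ± 0.18), and 2 lower in males, the other being Osmr (-0.87 ± 0.24). Of the 19 signalling genes 5 fell in females, including Socs3 (-1.41 ± 0.22, adjusted p = 0.00421) and Relb (-1.36 ± 0.21), and 6 fell in males, including Relb (-1.20 ± 0.27) and Nfkbiz (-1.06 ± 0.21). Cebpb rose in males (0.72 ± 0.18, adjusted p = 0.0303) and did not pass in females (0.53 ± 0.19, adjusted p = 0.0769). Socs3 in males had a log2 fold change of -1.38 ± 0.44 (adjusted p = 0.0596), Stat3 one of 0.04 ± 0.08 in females and -0.23 ± 0.12 in males, and Cebpd one of -0.27 ± 0.13 and 0.23 ± 0.25, none of them called. Among partners, 5 of 10 fell in females, led by Fcgr1 (-1.24 ± 0.24) and the lipoprotein receptor Scarb1 (-1.20 ± 0.25), and 2 in males, Tlr2 (-1.37 ± 0.38) and Scarb1 (-0.33 ± 0.10).

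Cell type markers moved with SC-435 as well. Macrophage markers were lower in 9 of 10 in females, with a sum of 260 to 398 CPM on SC-435, and in 4 of 10 in males, with a sum of 229 to 344 CPM. Both neutrophil markers tested were lower in each sex. Markers this low can pass the filter on low counts through KO mice on chow alone. In male WT mice, with chow replicate 1 left out, 0 of 10 could be tested for SC-435 vs chow. The direction of those tested was thus partly given. In KO mice on SC-435 the sum of all 10 ran from 0.322 to 1.36 CPM in females and from 0.396 to 1.09 CPM in males. KO mice on chow had 1.84 to 4.92 CPM in females and 1.85 to 3.05 CPM in males. Cholangiocyte markers were lower in 2 of 6 in females (sum 97.7 to 141 CPM) and in 4 of 6 in males (49.1 to 59.9 CPM). The 7 hepatocyte markers had a median log2 fold change of 0.20 in females and 0.13 in males. Their part in the lower acute phase mRNAs was not tested. The plot of gene lists shows these counts beside those of the 10 genes.

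**Figure D3:**
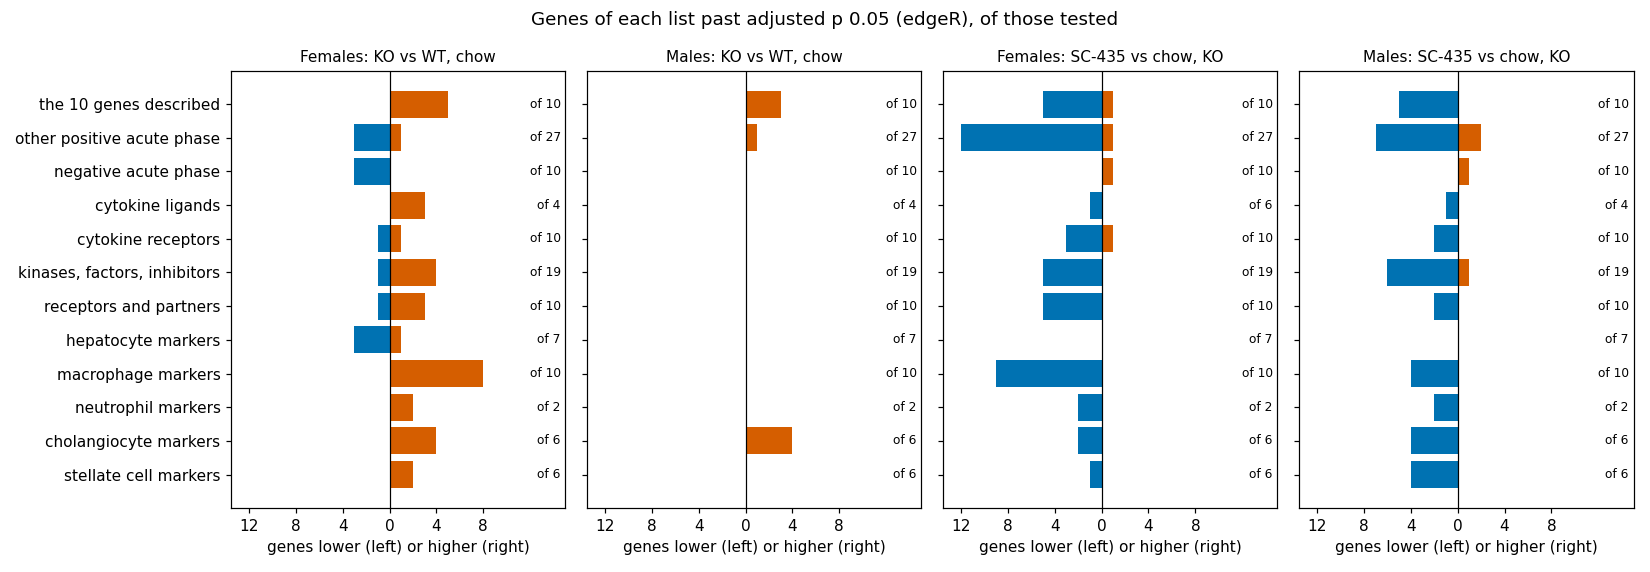
Number of genes of each list with an adjusted p under 0.05 in edgeR, drawn to the left of 0 when lower and to the right when higher, in 4 comparisons of 4 against 4 mice. The number at the right of each row is how many genes of the list were tested. Among the 10 genes described, 5 were higher in female and 3 in male KO mice on chow, and 5 were lower on SC-435 in each sex.

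Whether SC-435 acted differently in KO and in WT mice was tested as an interaction within each sex. In females Lcn2 alone was called (-2.79 ± 0.65, adjusted p = 0.0333), 1 of 10 genes lower at a background of 1.78%. Saa2 (-1.86 ± 0.49, adjusted p = 0.0526) and Saa1 (-1.71 ± 0.46, adjusted p = 0.0566) were just outside, followed by Apcs (0.97 ± 0.29, adjusted p = 0.0793) and Hp (-0.73 ± 0.24, adjusted p = 0.105). The Lcn2 call held without the mice of replicate number 4 and was lost without those numbered 1 (-2.44, adjusted p = 0.203), 2 (-1.93, adjusted p = 0.292) or 3 (-3.46, adjusted p = 0.161). How many of the 10 were called also depended on the fit. DESeq2 called 5 (Lcn2, Saa1, Saa2 and Hp lower and Apcs higher), scaling by library size only 4, no filter on low counts 3, and genes of a mean of at least 50 counts 2. Without replicate number 4, Orm1 (adjusted p = 0.0491), Hp (adjusted p = 0.00914) and Apcs (adjusted p = 0.0121) were called beside Lcn2. The share of all genes called was not counted for these alternative fits, so their counts have no background beside them. In males 0 of the 10 genes were called, at a background of 0.0785% lower and 0.0121% higher, and DESeq2 called 0. An unadjusted p under 0.05 was found for 7 of the 10 genes and for 2208 of all 16555 genes tested. The male estimates rest on male WT SC-435 replicate 4. For Lcn2 the value was -9.32 ± 2.16 (adjusted p = 0.104) with that mouse and -3.39 ± 0.81 (adjusted p = 0.173) without it, and for Saa1 it was -8.08 ± 2.0 (adjusted p = 0.122) and -2.06 ± 0.49 (adjusted p = 0.173). Without male WT chow replicate 1 instead, it was -10.23 ± 2.45 for Lcn2 (adjusted p = 0.0644), -10.29 ± 2.72 for Saa2 (adjusted p = 0.0826) and -8.37 ± 2.24 for Saa1 (adjusted p = 0.0862), at a background of 0.301% higher and 0.396% lower.

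In WT mice the same inhibitor gave no called difference. In females 0 of 10 genes were called, at a background of 2.4% higher and 1.88% lower, and DESeq2 called 0. Of the 10 genes 1 (Saa3) had an unadjusted p under 0.05, as had 3114 of all 15739 genes tested. Lcn2 was at 13.0, 9.87, 6.14 and 7.14 CPM on SC-435 (0.09 ± 0.35), Saa2 at 9.35, 9.53, 9.47 and 9.40 CPM (-0.13 ± 0.20) and Saa1 at 21.9, 18.9, 17.8 and 24.9 CPM (-0.13 ± 0.20). All of these lay within the range of female WT mice on chow, and Saa2 differed little among the treated mice. Orm3 at 6.95, 10.1, 4.47 and 7.41 CPM, Orm2 at 17.8 to 21.5 CPM, Orm1 at 480 to 508 CPM, Hp at 1852 to 2172 CPM, Crp at 287 to 448 CPM and Apcs at 58.4 to 88.9 CPM overlapped with chow too.

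In male WT mice the values were set by 1 animal. Saa1 was at 49.4, 25.1, 35.2 and 9360 CPM in the 4 male WT mice on SC-435, and Saa2 at 15.3, 10.4, 8.33 and 9150 CPM. Replicate 4 was thus 256-fold above the mean of the other 3 for Saa1 and 808-fold for Saa2. Lcn2 was at 5.17, 2.34, 2.06 and 768 CPM, 241-fold above, and Orm2 at 13.4, 7.74, 10.3 and 1061 CPM, 101-fold above. Saa3, nowhere else above 6.39 CPM, was at 128 CPM, 43.7-fold above. In the order of ratios these were ranks 1 to 5 among 11676 protein-coding genes, led by Saa2 and followed by Saa1, Lcn2, Orm2 and Saa3.

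The other 5 genes had smaller ratios in that mouse. Apcs was at 44.7, 38.2, 43.4 and 563 CPM, 13.4-fold above the mean of the other 3 and rank 9. Hp was at 2641, 2267, 2485 and 14477 CPM, 5.87-fold above, and Orm1 at 502, 463, 443 and 2757 CPM, 5.88-fold above. Orm3 was at 6.13, 1.82, 1.77 and 11.7 CPM, 3.61-fold above, and below the female KO mice on chow. Crp was at 317, 304, 352 and 546 CPM, 1.68-fold above, the smallest ratio of the 10. For 9 of the genes this was the highest of the 32 livers, the exception being Orm3, which was highest in female KO chow replicate 2 at 38.0 CPM. These ratios describe 1 mouse against 3 and carry no test.

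Other genes of the response were high in the same liver. Of 27 other positive acute phase genes, 16 were over 2-fold above the mean of the other 3 mice and 1, Hamp2, was over 2-fold below, at 0.293-fold. Metallothionein Mt1 was 21.6-fold above, Steap4 7.65-fold, Lrg1 7.06-fold, haemopexin (Hpx) 5.69-fold and the fibrinogen chain Fga 3.29-fold. Socs3 stood at 24.9 CPM against a mean of 6.51 CPM (3.83-fold), Stat3 at 1.92-fold and Clcf1 at 4.07-fold, whereas Il6ra was at 0.464-fold, Cebpb at 0.703-fold, Cebpd at 0.525-fold, Il1b at 1.38-fold and Alb at 0.730-fold. Of 10 negative acute phase genes, 1 was over 2-fold above and 0 were over 2-fold below. The macrophage marker sum was 295 CPM and within the group's 281 to 330 CPM, the cholangiocyte sum was 48.1 CPM against 29.1 to 36.1 CPM, and the neutrophil sum was 5.44 CPM against 0.684 to 0.791 CPM. The part of neutrophils in the Lcn2 value of this liver was not tested. The plot of that mouse against its group shows the 10 genes and both lists.

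**Figure D4:**
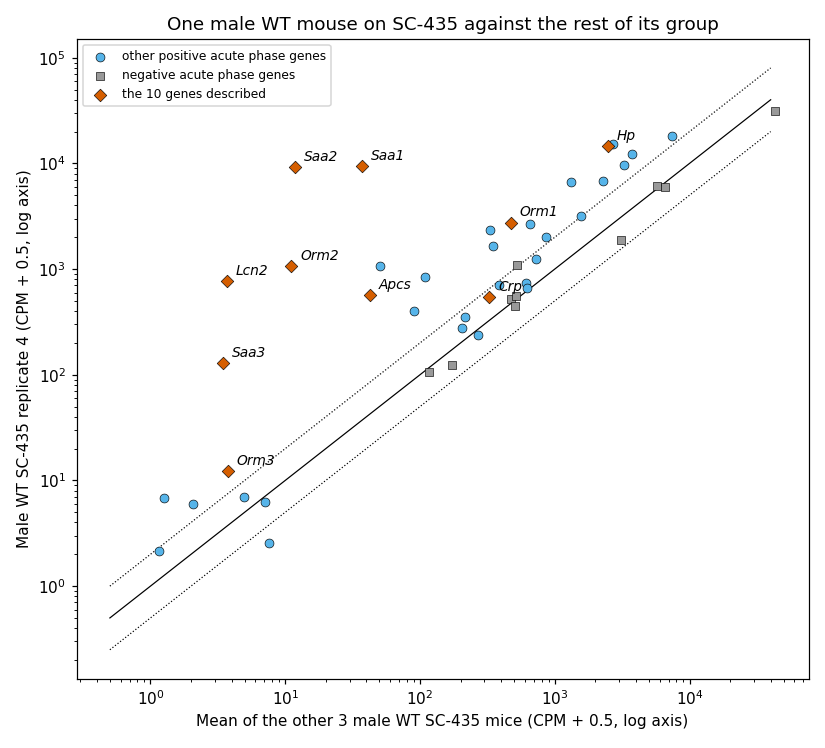
Male WT SC-435 replicate 4 (vertical axis) against the mean of the other 3 male WT mice on SC-435 (horizontal axis), both as CPM with 0.5 added on log axes, for the 10 genes (named diamonds), other positive (circles) and negative (squares) acute phase genes. The solid line marks equal levels and the dotted lines 2-fold. All 10 genes lie above the solid line and Crp alone among them lies inside the dotted lines.

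With that mouse included, SC-435 in male WT mice gave log2 fold changes up to 7.63 ± 2.49 for Saa2 (adjusted p = 0.608), and 0 of 10 genes were called at a background of 0.0131% higher and 0.0263% lower. At an unadjusted p under 0.05 there were 6 of the 10 genes and 931 of all 15211 genes tested, and DESeq2 called 0. Without it, the log2 fold change was -0.01 ± 0.47 for Saa2, 0.07 ± 0.34 for Saa1, 0.55 ± 0.69 for Lcn2, 0.35 ± 0.31 for Orm2 and -0.29 ± 0.45 for Hp, and 0 genes were called, with adjusted p from 0.917 to 0.996 over the 10. Without WT chow replicate 1 instead, the log2 fold change was 8.17 ± 2.89 for Saa2 (adjusted p = 0.177), 7.37 ± 2.50 for Lcn2 (adjusted p = 0.165) and 6.35 ± 2.33 for Saa1 (adjusted p = 0.19), and 0 genes were called at a background of 1.41% higher and 1.12% lower. The adjusted p of KO vs WT mice on SC-435 in males likewise missed the threshold in all 10 genes, with (0.423 to 0.739) and without that mouse (0.128 to 0.988). Saa2 then had a log2 fold change of 1.04 ± 0.20 (adjusted p = 0.128) and Apcs one of 0.38 ± 0.08 (adjusted p = 0.147). The backgrounds with all mice were 0.013% higher and 0.0194% lower, and DESeq2 called 0. With all mice 6 of the 10 genes had an unadjusted p under 0.05, as had 1366 of all 15434 genes tested.

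How far treated KO mice were from untreated WT mice was asked next. In females Orm2 (1.35 ± 0.18, adjusted p = 0.00091) and Orm3 (1.19 ± 0.26, adjusted p = 0.0111) were higher and Hp (-0.53 ± 0.13, adjusted p = 0.0191) lower in KO mice on SC-435 than in WT mice on chow. These were 2 of 10 genes higher, at a background of 8.73%, and 1 lower, at 7.3%, and in all 3 the groups did not overlap, as in 11.6% of all genes on the higher and 10.2% on the lower side. Lcn2 (0.24 ± 0.33, adjusted p = 0.663), Saa1 (0.11 ± 0.24, adjusted p = 0.796) and Saa2 (0.50 ± 0.29, adjusted p = 0.266) were not called. The calls of Orm2 and Orm3 held in 8 of 8 fits that left out 1 mouse, and that of Hp was lost without SC-435 replicate 2 (-0.46, adjusted p = 0.0692) or 3 (-0.49, adjusted p = 0.0625).

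On SC-435 in both genotypes, female KO mice had higher Orm2 (1.2 ± 0.12, adjusted p = 0.000615), Orm3 (1.08 ± 0.25, adjusted p = 0.0226) and Orm1 (0.31 ± 0.05, adjusted p = 0.00761) and lower Hp (-0.49 ± 0.11, adjusted p = 0.0206) than WT mice. These were 3 of 10 genes higher at a background of 6.23% and 1 lower at 4.69%. Orm1 was at 586 to 622 CPM in KO and 480 to 508 CPM in WT mice, a small difference between tight groups. Orm1 and Orm2 lay wholly above WT, as did 9.07% of all genes, and Hp wholly below, as did 9.34%. Orm1 and Orm2 held in 8 of 8 fits. Orm3 was lost without KO replicate 1, 2 or 3 or WT replicate 1 (log2 fold change from 1.0 to 1.06, adjusted p up to 0.0697), and Hp without KO replicate 2 or 3 or WT replicate 1 (-0.42 to -0.46, adjusted p up to 0.0606). Among treated females Lcn2 (0.16 ± 0.26), Saa1 (0.24 ± 0.19) and Saa2 (0.63 ± 0.23, adjusted p = 0.107) were not called.

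The remaining positive acute phase genes were mostly on the low side in treated female KO mice. Against WT mice on chow, 15 of 27 fell and 1 rose, with a median of -0.31 against 0.00 over all genes, led by Lbp (-0.95 ± 0.14) and the iron hormone Hamp (-0.90 ± 0.18), while Mt1 was higher (1.21 ± 0.36). Socs3 (-0.76 ± 0.12), Cebpb (-1.01 ± 0.23) and Cebpd (-1.0 ± 0.28) fell, and the ligands Clcf1 (1.42 ± 0.23) and Il1b (1.27 ± 0.29) rose. Against WT mice on SC-435, 9 of 27 fell and 0 rose.

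In males, KO mice on SC-435 against WT mice on chow gave 0 called genes of 10, at a background of 0.169% higher and 0.039% lower, and DESeq2 called 1. An unadjusted p under 0.05 was found for 3 of the 10 genes and for 1269 of all 15395 genes tested. The result turned on WT chow replicate 1. Without it, Saa2 (1.55 ± 0.19, adjusted p = 0.00193), Lcn2 (1.82 ± 0.30, adjusted p = 0.00664), Orm2 (0.91 ± 0.15, adjusted p = 0.00575), Saa1 (0.53 ± 0.14, adjusted p = 0.0414) and Apcs (0.48 ± 0.08, adjusted p = 0.00648) were higher in the treated KO mice, 5 of 10 at a background of 6.47% higher and 5.7% lower. With all 4 WT mice Apcs alone lay wholly above WT, as did 5.07% of all genes, and the log2 fold change of Lcn2 was 0.91 ± 0.57 (adjusted p = 0.762).

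Sexes were compared in WT mice on chow. Apcs was higher in females, at 61.0 to 125 CPM against 37.1 to 42.8 CPM in males, a log2 fold change of 1.21 ± 0.23 (adjusted p = 0.0401). It was the only one of the 10 genes called, at a background of 0.747% in each direction. It was not called without female replicate 1 (1.04), 2 (1.14) or 3 (1.28) or male replicate 2 (1.25), 3 (1.18) or 4 (1.19), with adjusted p from 0.0942 to 0.15. Orm3 was at 3.64 to 8.17 CPM in females and 0.975 to 3.07 CPM in males (1.74 ± 0.42, adjusted p = 0.101), and Orm2 at 13.7 to 24.2 and 6.38 to 13.0 CPM (1.14 ± 0.28, adjusted p = 0.111), both without overlap. For Apcs, Orm2 and Orm3 the females lay wholly above the males, as for 6% of all genes. Without male replicate 1, Lcn2 (2.86 ± 0.45, adjusted p = 0.00466), Orm2 (1.43 ± 0.18, adjusted p = 0.00178), Orm3 (1.53 ± 0.34, adjusted p = 0.0236) and Apcs (1.23 ± 0.22, adjusted p = 0.00818) were called, 4 of 10 at a background of 4.78% higher. Saa1, by contrast, had a log2 fold change of -0.64 ± 0.31 with all mice (adjusted p = 0.518).

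Ordered by group mean, Saa1 and Saa2 were highest in male WT mice on SC-435 through replicate 4 (36.6 ± 12.2 CPM for Saa1 and 11.3 ± 3.57 CPM for Saa2 without it, SD, n = 3). They were followed by male KO mice on chow (165 ± 77.6 and 99.2 ± 55.6 CPM) and female KO mice on chow (87.4 ± 43.8 and 58.1 ± 28.7 CPM), which overlapped. All other groups had means of 20.9 to 41.6 CPM for Saa1 and 9.44 to 23.2 CPM for Saa2 with each neighbour in the order overlapping the next. Lcn2 without that mouse was highest in female KO mice on chow (65.2 ± 47.8 CPM) and male KO mice on chow (29.0 ± 15.9 CPM), which overlapped. It was lowest in male WT mice on chow (2.24 ± 2.18 CPM). Orm3 was highest in female KO mice on chow (28.0 ± 8.01 CPM), which did not overlap with the next group, female KO mice on SC-435 (15.3 ± 3.97 CPM), and all male groups had means of 5.35 CPM or less. Orm2 without that mouse ran from 46.8 ± 8.09 CPM in female KO mice on SC-435 down to 8.32 ± 3.16 CPM in male WT mice on chow. Hp was lowest in female KO mice on SC-435 (1443 ± 227 CPM), without overlap with the group above it, female WT mice on SC-435 (2030 ± 165 CPM). Apcs was highest in female KO mice on SC-435 (93.2 ± 17.0 CPM, that mouse left out) and lowest in male WT mice on chow (39.8 ± 2.63 CPM), which overlapped with the 3 other male WT mice on SC-435 (42.1 ± 3.44 CPM). Orm1 and Saa3, that mouse left out, ran from 679 ± 123 and 4.0 ± 1.33 CPM in male KO mice on chow down to 469 ± 29.6 CPM in male WT mice on SC-435 and 1.58 ± 0.499 CPM in female KO mice on SC-435, every neighbour overlapping. Crp varied little, with group means from 310 ± 66.6 to 396 ± 37.5 CPM and every neighbour overlapping.

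The share of the paralogs within each liver also varied, a pattern chosen after the values were seen. Saa2 had 0.438 to 0.466 counts per count of Saa1 in female WT mice on chow and 0.640 to 0.693 in female KO mice on chow. In males the ratio was 0.238 to 0.416 in WT and 0.456 to 0.654 in KO mice, and it reached 0.978 in male WT SC-435 replicate 4. Orm2 had 0.0316 to 0.0368 counts per count of Orm1 in female WT and 0.0594 to 0.120 in female KO mice on chow, 0.0113 to 0.0190 in male WT and 0.0228 to 0.0631 in male KO mice, and 0.385 in that mouse. The groups did not overlap in any of these 4 comparisons of genotypes, though no share over other gene pairs was counted. On SC-435 both ratios of KO mice overlapped with those of KO mice on chow in each sex. An exact permutation test gave each comparison of genotypes an unadjusted p of 0.0286, the smallest possible with 4 against 4 mice. The adjusted p over 8 comparisons was 0.0571 for each, so none passed. As each was at the floor of the test, this cannot decide whether the ratios differed. As the pattern was chosen after the values were seen, these values are a description. Because shared stretches can move reads between paralogs, the ratios describe counts as assigned.

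**Figure D5:**
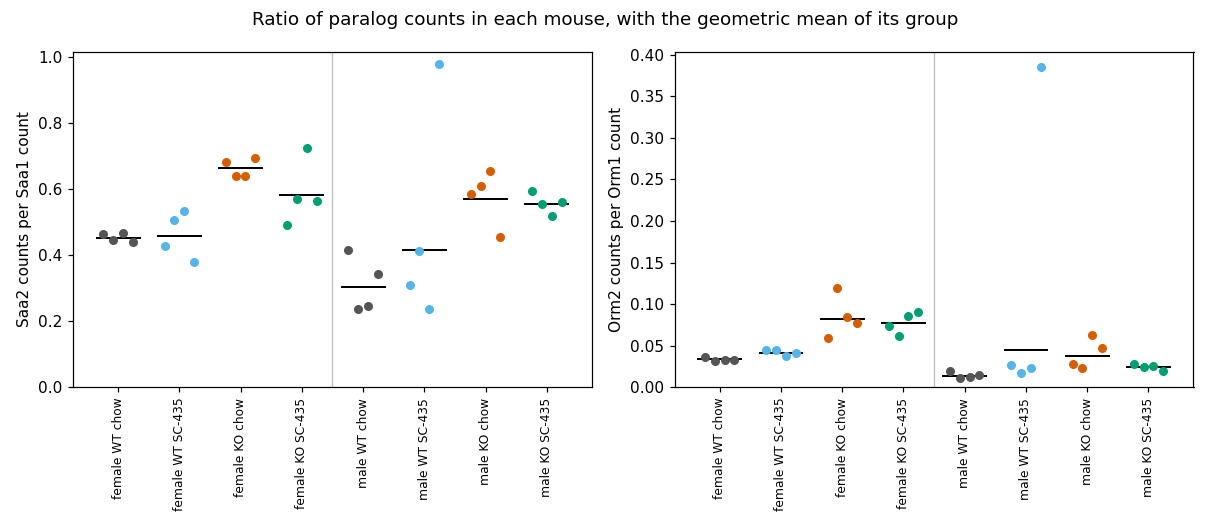
Counts of Saa2 per count of Saa1 (left) and of Orm2 per count of Orm1 (right) in each of 32 livers on linear axes from 0, with the geometric mean of each group of 4 mice as a bar. In both panels KO mice on chow lie above WT mice on chow in each sex, and male WT SC-435 replicate 4 has the highest ratio, 0.978 on the left and 0.385 on the right.

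Genes were also ranked by how much their pattern resembled that of each acute phase gene, as Pearson's r of log2 CPM over the 32 livers, among 11902 protein-coding genes. Saa1 was most like Saa2 (r = 0.981), Saa3 most like Saa1 (0.893), Hp most like Lrg1 (0.941) and Orm1 most like Cpb2 (0.924). Orm2 was most like Lcn2 (0.844), Apcs most like Orm2 (0.833), Lcn2 most like Slc13a5 (0.894), Orm3 most like Greb1l (0.823) and Crp most like Dap (0.796). Saa1 and Saa2 share sequence, all points share their libraries, and male WT SC-435 replicate 4 lies far from the other points.

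Without that mouse, over 31 livers, the ranking changed for most genes. Saa1 was again most like Saa2 (r = 0.950, and 0.938 over deviations from the group means), followed by Mmp12 (0.831) and Cxcl14 (0.818). Lcn2 was most like Tmem132a (0.904), Hp most like Erp29 (0.899), Orm2 most like Evc2 (0.928), Orm3 most like Greb1l (0.850) and Apcs most like Josd2 (0.854). Crp was most like Agt (0.786), Orm1 most like Cpb2 (0.765) and Saa3 most like Spsb4 (0.714). Between the genes described, r was 0.552 for Saa1 and Lcn2, 0.752 for Orm2 and Lcn2, and 0.749 for Orm2 and Orm3, the last falling to 0.036 over deviations from the group means. For Orm1 and Hp it was 0.024. These coefficients are descriptions over livers that share the contrasts above.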

How the data were processed

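RNA came from liver of 32 mice, 1 mouse per library, in 8 groups of 4 set by sex, genotype and diet in the labels. The authors deposited raw counts per gene from poly(A) libraries, together with FPKM values and the group means, fold changes and p-values of their own comparisons. Only the counts and the gene lengths were used. The submitters' processing notes name HISAT2 2.0.5, featureCounts 1.5.0-p3, DESeq2 1.20.0, GATK 4.1.1.0 and the genome mm10. The strand setting of the counting was not given in the sources used here.

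Counts were tested with edgeR 4.0.16 in R 4.3.3 (filterByExpr, TMM, glmQLFit and glmQLFTest, Benjamini-Hochberg adjustment over all genes tested, threshold 0.05), each comparison of groups on its own 8 libraries and each interaction on 16. The SE is the size of the log2 fold change divided by the square root of F. Ratios of a single mouse used CPM, with 0.5 added for log2 values. CPM per kb is CPM divided by the deposited gene length. The code was tested on simulated data. The lowest count of any member in any library was 25, for Orm3.

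The members and all gene lists were chosen with earlier results of these data known. Named are all 10 members, then from each list up to 2 genes per direction with the largest change among those called, and Socs3, Stat3, Cebpb, Cebpd, Il6, Il1b and Tnf. One gene that this rule would name is not reported here. Further genes named in the mouse that stood apart or in fits without a mouse, and the paralog ratios, were chosen after their values were seen. Likeness was ranked over protein-coding genes averaging 1 CPM or more.

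Alternatives were DESeq2 1.42.0, other scalings and filters on low counts, the replicate number as a block, 1 fit per sex, summed paralogs and each mouse left out in turn. List counts and likeness without the mice that stood apart were added after seeing the data. No 2 libraries of a group agreed within sampling noise (48 pairs). Promoters came from RefSeq (GRCm38.p6) and exons from GENCODE M21.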

Additional observations from a re-analysis of the deposited data

Results flagged for a closer look

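In 80 sets of 4 mice (10 genes in 8 groups), the highest or lowest mouse was tested against Dixon's 95% critical value for its gap to the nearest mouse, relative to the range of the group. It passed in 14 sets, where chance alone gives about 1 in 20.

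Of these, 8 belonged to male WT SC-435 replicate 4, which was far above its group for Saa1 (9360 CPM), Saa2 (9150 CPM), Saa3 (128 CPM), Orm1 (2757 CPM), Orm2 (1061 CPM), Hp (14477 CPM), Lcn2 (768 CPM) and Apcs (563 CPM). A further 3 belonged to male WT chow replicate 1, highest of its group for Orm2 (13.0 CPM), Hp (6299 CPM) and Crp (484 CPM). The CPM of every gene in this library are raised by its TMM factor of 0.622, against 0.964 to 1.004 in its group mates. Whether these flags hold without that scaling was not tested. The remaining 3 were single values in other groups. Orm2 was lowest in female WT SC-435 replicate 3 at 17.8 CPM, Orm3 was lowest in female KO SC-435 replicate 4 at 9.37 CPM, and Orm3 was highest in male KO SC-435 replicate 3 at 3.88 CPM.

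The effect of SC-435 on Lcn2 differed between KO and WT females in the interaction test by edgeR, with a log2 difference of -2.79 (adjusted p = 0.0333). Lcn2 was lower on SC-435 in 4 of 4 KO mice than in any KO mouse on chow, and overlapped between diets in WT mice. This call held in 1 of 4 fits that left out the mice of 1 replicate number, with adjusted p up to 0.292 in the others, and it was lost with the replicate number as a block (-2.62, adjusted p = 0.0737).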

How the results depend on the processing

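Counts of called acute phase genes out of 10 are compared here with those of the report. Except for fits without the mice that stood apart, the share of all genes called under each alternative was not counted. A changed count therefore does not tell whether the 10 genes or all genes gained or lost calls. With paralogs summed, 3 features were called for female KO vs WT on chow and 1 for female KO on SC-435 vs WT on chow; summed Orm had a log2 fold change of -0.063 (adjusted p = 0.881) in the former, against positive values for Orm2 and Orm3 alone, and of 0.29 (adjusted p = 0.33) for female SC-435 vs chow in KO, against a negative value for Orm3 alone. By construction this sum follows Orm1, which held 71.99% to 98.4% of the Orm counts. With all groups of a sex in 1 fit, 0 were called for male KO vs WT on chow, 0 for male SC-435 vs chow in KO and 2 for female KO vs WT on SC-435. DESeq2 called 1 for male KO on SC-435 vs WT on chow, 3 for female vs male WT on chow and 5 for the interaction in females. Scaling by library size only gave 2 and 4 for the last pair and shifted the centre of all genes by up to 0.25 on the log2 scale. For the interaction in females, no filter on low counts gave 3 and a mean of at least 50 counts gave 2, and for that in males no filter gave 1. Apart from what is said of the summed paralogs, the cause of these changes was not tested.

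With the replicate number as a block, 0 were called for male KO vs WT on chow, 0 for female vs male WT on chow and 0 for the interaction in females. The numbers were not taken to pair the mice, since the correlation of deviations was under 0.1 for at least 1 same-numbered pair in every comparison. In male KO vs WT on chow, however, it ran from 0.078 to 0.165 with 3 of 4 pairs over 0.1, 8 of 8 mice were nearest to their own number, and the calls of Saa1, Saa2 and Lcn2 had adjusted p from 0.0761 to 0.0907 with the block.

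Leaving out each mouse in turn gave 4 to 6 called for female KO vs WT on chow, 0 to 5 for male KO vs WT on chow, 3 to 7 for female SC-435 vs chow in KO, 3 to 6 for the same in males, 2 to 3 for female and 0 to 5 for male KO on SC-435 vs WT on chow, 2 to 4 for female KO vs WT on SC-435, 0 to 4 for female vs male WT on chow and 0 to 4 for the interaction in females. It gave 0 throughout for SC-435 vs chow in WT mice of either sex, male KO vs WT on SC-435, the interaction in males and the sex difference. Over 2090 single values of members under all alternatives, 3 reversed, that is changed sign with a call in either fit, 89 lost and 47 gained a call. In all 97 changed sign, which includes the 3 that reversed.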
